A study of Mus musculus with 31 samples.

Results

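Cytokine receptors and receptors of the tumour necrosis factor (TNF) superfamily were followed in mouse bone marrow macrophages 2 h after contact with bacterial lipopolysaccharide (LPS) or live Escherichia coli. The receptors were taken by gene symbol: the interleukin receptors (Il followed by a number and r), every Tnfrsf gene, Ifngr1 and Ifngr2, the Csf2 and Csf3 receptor chains, Tgfbr1 to Tgfbr3 and Il6st. This gave 52 genes, read by 58 of the 13872 probes of the spotted array, 11480 of which carry 1 gene symbol. The rule reads only the symbol. Of the 58 probes, 26, for 26 different genes, had a value in at least 3 of 4 mice of every group and were tested beside 7325 probes in all.

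Wild-type C57BL/6J and MyD88-/- mice aged 6 to 8 weeks gave the marrow, which was grown for 8 days in medium conditioned by L929 cells, a source of CSF-1. The strain background of the MyD88-/- mice is not given beyond that label. Cultures received 10 ng/mL re-purified LPS of E. coli O111, live log-phase E. coli at 1 bacterium per macrophage, or medium alone, called mock. For each genotype and stimulus the mice are numbered 1 to 4, and whether a number is the same animal under both stimuli is not stated. Each array set stimulated RNA of a mouse against mock RNA of the same genotype, mostly once in each dye orientation, so that 31 arrays gave 16 mouse-level ratios in 4 groups of 4 mice. MyD88-/- LPS mouse 4 had a single, unswapped array. Every value below is a log2 ratio, read as stimulated over mock. That direction is likely, since the titles name the stimulus before mock, but the labels do not state it. The deposited columns of the 15 dye pairs correlated across probes at 0.256 to 0.71, so the columns of a pair run the same way, which does not show which way. A ratio is a change, not a level of expression, and since both RNAs of an array are of one genotype, it cannot check the MyD88 deletion.

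Macrophages read their surroundings through these receptors. Ligand binding to an interferon receptor, or to many but not all interleukin receptors, pairs 2 or more chains and activates Janus kinases and STAT factors. Many chains are shared between several cytokines. TNF superfamily receptors instead recruit TRAF adaptors or death-domain proteins and lead to NF-kappaB activity or cell death. LPS is sensed by Toll-like receptor 4, which signals through the adaptor MyD88 and through a second branch with the adaptor TRIF, and only the first is removed in MyD88-/- cells.

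Tnfrsf1b, the type 2 TNF receptor, rose in all 4 groups, whereas Il6ra, Il7r and Il21r, the ligand-binding chains for interleukins 6, 7 and 21, fell in all 4. These were the only tested members called in every response. Their promoters are printed because these 4 genes kept 1 direction each in all conditions, the first up and the other 3 down. The sequences are RefSeq promoters on GRCm38.p6, from 250 bases before to 50 bases after the gene's start, 5′ to 3′ on the gene's strand. Capitals mark every match, on either strand, to a kappaB-like motif (GGGNNNNNCC) or to the gamma-activated motif of STAT factors (TTCNNNGAA), with overlapping matches run together.
Tnfrsf1b chr4:145246821-145247120 (-): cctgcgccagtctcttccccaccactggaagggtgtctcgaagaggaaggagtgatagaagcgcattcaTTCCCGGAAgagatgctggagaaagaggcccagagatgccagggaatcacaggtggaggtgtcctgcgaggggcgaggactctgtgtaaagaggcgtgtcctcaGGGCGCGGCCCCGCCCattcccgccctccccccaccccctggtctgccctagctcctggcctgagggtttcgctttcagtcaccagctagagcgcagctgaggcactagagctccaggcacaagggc
Il6ra chr3:89913147-89913446 (-): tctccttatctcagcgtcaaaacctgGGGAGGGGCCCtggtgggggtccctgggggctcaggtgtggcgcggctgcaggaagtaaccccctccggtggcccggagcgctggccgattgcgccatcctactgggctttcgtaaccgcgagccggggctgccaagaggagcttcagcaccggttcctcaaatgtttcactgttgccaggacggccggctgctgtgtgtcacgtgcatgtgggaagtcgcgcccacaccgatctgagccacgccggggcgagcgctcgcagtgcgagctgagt
Il7r chr15:9529827-9530126 (-): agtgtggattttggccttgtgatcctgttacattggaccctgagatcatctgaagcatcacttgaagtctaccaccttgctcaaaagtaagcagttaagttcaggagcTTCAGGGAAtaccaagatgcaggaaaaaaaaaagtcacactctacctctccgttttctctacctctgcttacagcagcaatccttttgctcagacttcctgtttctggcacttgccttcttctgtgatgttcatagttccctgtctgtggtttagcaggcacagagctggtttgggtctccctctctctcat
Il21r chr7:125603179-125603478 (+): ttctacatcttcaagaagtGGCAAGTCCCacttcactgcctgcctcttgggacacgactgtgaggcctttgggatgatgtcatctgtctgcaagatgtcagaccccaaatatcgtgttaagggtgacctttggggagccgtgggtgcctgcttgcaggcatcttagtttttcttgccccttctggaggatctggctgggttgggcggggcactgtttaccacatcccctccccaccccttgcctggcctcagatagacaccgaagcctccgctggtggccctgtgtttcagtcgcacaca
The Tnfrsf1b window held 3 kappaB-like matches, overlapping one another, and 1 gamma-activated match. The Il6ra window held 2 and 0, the Il7r window 0 and 1, and the Il21r window 1 and 0. Over all 32851 promoters in the table, 50.8% held a kappaB-like match and 8.30% a gamma-activated match. Of the 52 receptor genes, 41 were listed, with 48 promoters, and 28 of these (58.3%) held the first motif and 10 (20.8%) the second. A match describes letters and is not evidence of a site.

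**Figure D1:**
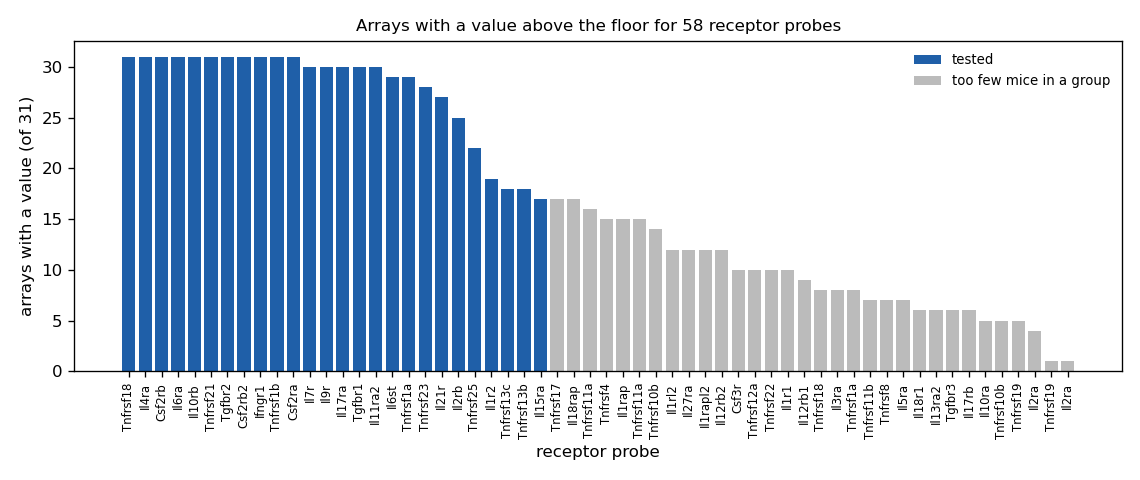
Number of arrays, of 31, with a usable value (vertical axis) for each of the 58 receptor probes (horizontal axis, by gene). Blue bars are the 26 tested probes, found on 17 to 31 arrays, and grey bars are the 32 others, found on 1 to 17.

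How much of the family could be read was limited. Tested probes had values on 17 to 31 arrays, 11 of them on all 31, whereas the 32 other probes had values on 1 to 17, as the plot of arrays with a value shows. Of the 16 macrophage markers, 13 were tested, among them Adgre1 and Csf1r, which were not called. In wild-type cells 3 fell with LPS (Cd68, Fcgr1 and Lgmn) and 4 with E. coli (Fcgr1, Lgmn, C1qa and Ctsd), in MyD88-/- cells 1 with LPS (Fcgr1) and 0 with E. coli, and Msr1 rose in all 4. Of all probes tested, 9.04% and 11.8% were called lower in wild-type cells with LPS and E. coli, and 4.70% and 4.42% in MyD88-/- cells. The medians of the 13 markers were -0.28 and -0.31 in wild-type cells and -0.22 and -0.18 in MyD88-/- cells, with LPS and E. coli. Whether these shifts have a part in the receptor falls was not tested. In a bulk culture, fewer cells of a type and less RNA per cell cannot be told apart.

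In wild-type macrophages, LPS changed 11 of the 26 receptors (42.3%), 5 higher and 6 lower, against 17.0% of all probes tested (7.99% higher and 9.04% lower). The test throughout was limma's moderated test on mouse-level ratios, with Benjamini-Hochberg adjustment over all 7325 probes and a call at an adjusted p under 0.05. In MyD88-/- macrophages LPS changed 6 of 26 (23.1%), 2 higher and 4 lower, against 9.98% (5.28% and 4.70%). E. coli changed 7 of 26 in wild-type cells (26.9%), 2 higher and 5 lower, against 21.2% (9.43% and 11.8%). In MyD88-/- cells E. coli changed 9 of 26 (34.6%), 5 higher and 4 lower, against 10.8% (6.35% and 4.42%). The receptors' median log2 ratio was -0.07, -0.13, -0.14 and -0.01 in these 4 responses, beside -0.05, -0.05, -0.06 and -0.05 over all probes. With each array centred on its median and scaled to a common spread, the split became 4 higher and 5 lower both for MyD88-/- cells with LPS and for wild-type cells with E. coli. In total 15 receptors were called in at least 1 response and 11 in none. Of the 33 calls, 13 were also made when each group was fitted on its own 4 mice. Those 13 were Tnfrsf1b in all 4 groups, Il21r in 3 (not MyD88-/- E. coli), Il6ra and Il7r in both wild-type groups, and Csf2rb and Tnfrsf13b in wild-type cells with LPS.

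**Figure D2:**
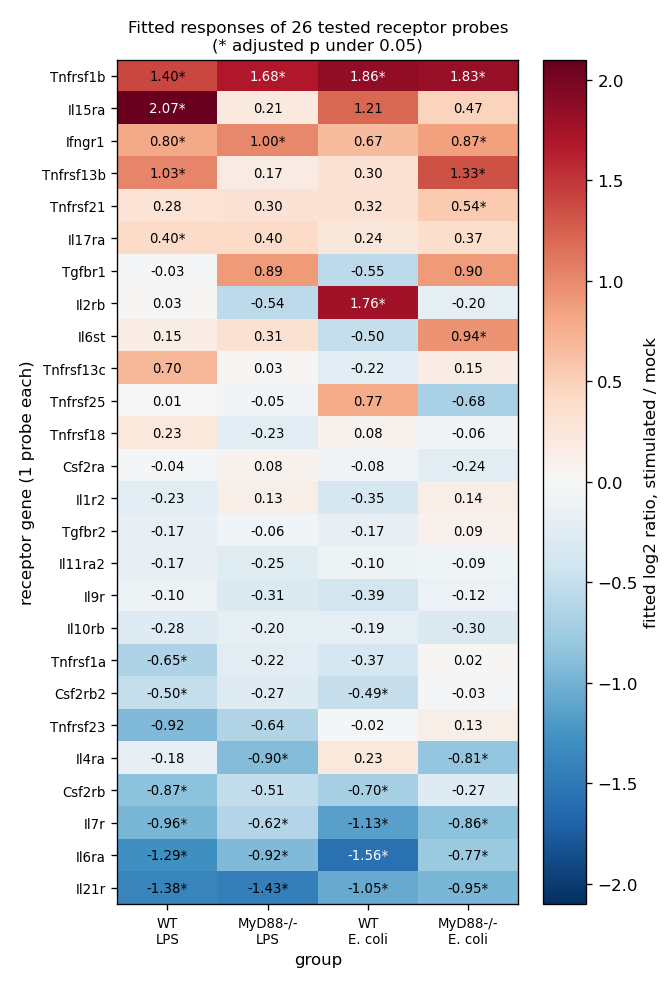
Fitted log2 ratio, stimulated over mock, of the 26 tested receptors (rows) in the 4 groups (columns), with red for higher and blue for lower. Tnfrsf1b is the receptor called higher in all 4 columns, and Il6ra, Il7r and Il21r are called lower in all 4.

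Among the tested TNF superfamily receptors, Tnfrsf1b had the highest fitted ratio in each group. Its log2 ratios in wild-type mice with E. coli, the group of its smallest p, were 1.57, 2.07, 1.94 and 1.85 (mice 1 to 4). All 16 mouse values lay above 0, from 1.18 to 2.49. The fitted rise was 3.62-fold in wild-type cells with E. coli (log2 1.86 ± 0.18 SE, adjusted p = 2.34e-06, n = 4 mice) and 3.57-fold in MyD88-/- cells (1.83, adjusted p = 4.12e-06). With LPS it was 2.64-fold in wild-type (1.40, adjusted p = 5.07e-05) and 3.19-fold in MyD88-/- cells (1.68, adjusted p = 1.14e-05). The genotypes overlapped under both stimuli. In wild-type cells E. coli minus LPS was 0.46 ± 0.25 SE and did not pass the test (adjusted p = 0.9989). The E. coli mice there, from 1.57, lay just above the LPS mice, up to 1.53. How many probes separate the stimuli in this way was not counted.

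Tnfrsf1a, the death-domain type 1 TNF receptor, was called lower in 1 group. In wild-type mice with LPS its values were -0.62, -0.68, -0.51 and -0.77, and the fitted value fell by 0.65 on the log2 scale (-0.65 ± 0.16 SE, adjusted p = 0.0107). The fitted log2 ratios were -0.22 in MyD88-/- cells with LPS, -0.37 in wild-type cells with E. coli and 0.02 in MyD88-/- cells with E. coli, none called. A second Tnfrsf1a probe had values on 8 arrays and was not tested; its 7 mouse values ran from -2.12 to 1.37. So the fall rests on a single probe.

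Tnfrsf21, death receptor 6, rose in MyD88-/- cells with E. coli, where the mice had 0.06, 0.49, 0.62 and 1.00 (fitted 0.54 ± 0.14 SE, adjusted p = 0.0218). In the other groups it was 0.28 to 0.32, not called, and all 16 mouse values lay above 0, from 0.04 to 1.00. On unswapped arrays alone it was also called in wild-type E. coli cells (0.37, adjusted p = 0.0426). Leaving out mouse 2, 3 or 4 of the MyD88-/- E. coli group ended the call there, with adjusted p = 0.0679, 0.0916 and 0.143.

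Tnfrsf13b (TACI), which binds the B-cell factors BAFF and APRIL, was called higher in wild-type cells with LPS and in MyD88-/- cells with E. coli. The wild-type LPS mice had 1.23, 1.11, 0.72 and 1.05 (fitted 1.03 ± 0.31 SE, adjusted p = 0.0403). The MyD88-/- E. coli mice had 2.54, 1.07 and 0.39, with mouse 2 missing (fitted 1.33 ± 0.36 SE, adjusted p = 0.0321). In the other 2 groups it was 0.17 and 0.30, with values on both sides of 0. These values were thin: 8 of its mouse values rest on 1 array, and the median dye-pair difference was 1.35 log2 units. Unswapped arrays ran higher, by 0.79 log2 units on average over 5 dye pairs. MyD88-/- E. coli mice 1 and 3 had only unswapped values. The MyD88-/- E. coli call was lost without mouse 1 (0.73, adjusted p = 0.234) or mouse 3 (1.46, adjusted p = 0.0825) of its group. An array-level fit with a dye term also ended it (0.93, adjusted p = 0.124). Keeping values at the floor, which the main analysis treated as missing, turned it to -1.48 (adjusted p = 0.0804). The LPS call was lost with arrays centred and scaled (adjusted p = 0.0867) and with floor values kept (0.124). It was also lost without any 1 of the 4 wild-type LPS mice (adjusted p from 0.0692 to 0.133). Leaving out a mouse of another group also ended it for MyD88-/- LPS mouse 1 (0.0509) and mouse 2 (0.052), for mouse 2 of wild-type E. coli (0.0523) and for mouse 3 of MyD88-/- E. coli (0.0519).

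The remaining tested TNF superfamily receptors were not called. Tnfrsf23, a mouse decoy receptor for TRAIL, had -1.20, -1.12, -0.42 and -0.95 in wild-type LPS mice (fitted -0.92, adjusted p = 0.0611) and -0.64, -0.02 and 0.13 in the others, that is in MyD88-/- cells with LPS, then in wild-type and MyD88-/- cells with E. coli. The wild-type LPS value of Tnfrsf23 was called under 5 alternatives (adjusted p from 0.0155 to 0.0486). Tnfrsf25, death receptor 3, had 1.28, 0.41 and 0.62 in 3 wild-type E. coli mice (fitted 0.77) and -1.38, -0.51, -0.19 and -0.63 in MyD88-/- E. coli mice (fitted -0.68). Tnfrsf13c, the BAFF receptor, reached 0.70 in wild-type cells with LPS, from 1.80, -0.10, 0.59 and 0.52. Tnfrsf18 (GITR) lay between -0.23 and 0.23 in the 4 fits.

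**Figure D3:**
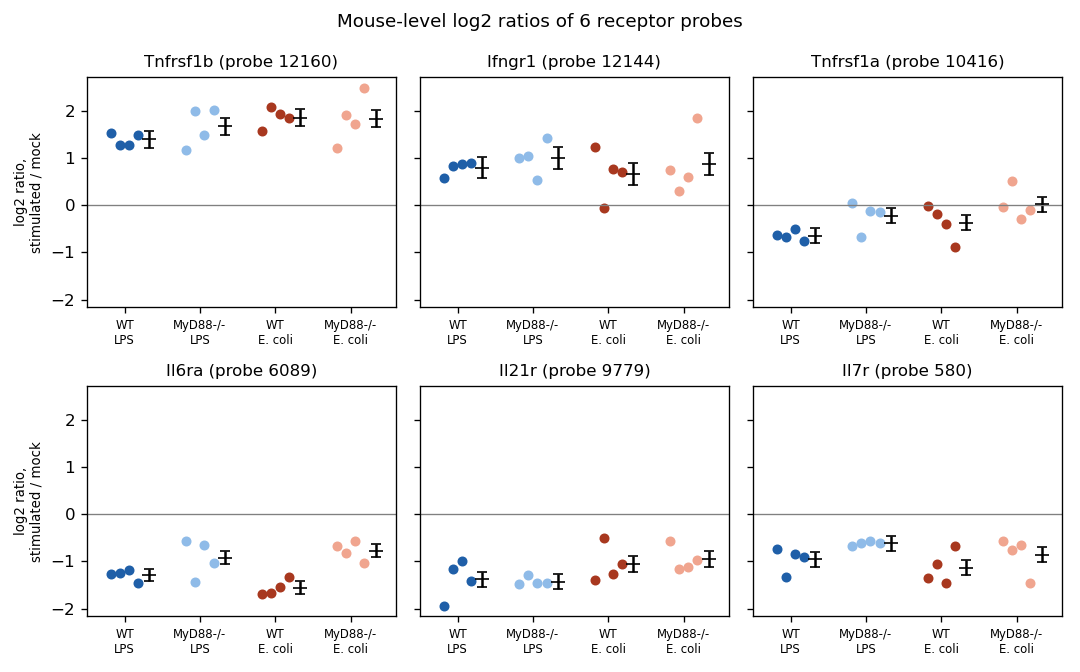
Mouse-level log2 ratios, stimulated over mock, in each group, for Tnfrsf1b, Ifngr1, Tnfrsf1a, Il6ra, Il21r and Il7r. Each point is a mouse and the bars give the fitted value ± SE. All Tnfrsf1b points lie above 0 and all Il6ra, Il21r and Il7r points lie below it.

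Il6ra, the alpha chain that captures interleukin 6, fell in every group. The wild-type E. coli mice had -1.69, -1.67, -1.55 and -1.34 (fitted -1.56 ± 0.14 SE, adjusted p = 6.86e-07), and the MyD88-/- E. coli mice had -0.67, -0.83, -0.57 and -1.02 (fitted -0.77, adjusted p = 0.00119). These 2 groups did not overlap. With LPS the fitted value was -1.29 in wild-type cells (adjusted p = 6.74e-06) and -0.92 in MyD88-/- cells (adjusted p = 0.000259), and these overlapped, since MyD88-/- LPS mouse 2 had -1.43.

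Il6st encodes gp130, the chain shared by the interleukin 6 family that passes on the signal. It rose in MyD88-/- cells with E. coli, where the mice had 0.91, 1.91, 0.61 and 0.33 (fitted 0.94 ± 0.25 SE, adjusted p = 0.0224). The wild-type E. coli mice had -1.25, -0.53, -0.07 and -0.14 (fitted -0.50, not called), and on unswapped arrays alone that group was called lower (-0.84, adjusted p = 0.0256). Its mice 3 and 4 averaged an unswapped and a swapped array of opposite sign (-0.68 and 0.54, then -0.62 and 0.34). Mouse 1 had only an unswapped value. With LPS Il6st was 0.15 in wild-type and 0.31 in MyD88-/- cells, not called in either. The call was lost without MyD88-/- E. coli mouse 1 (adjusted p = 0.0623) or mouse 2 (0.168), on unswapped arrays (0.0846) and with floor values kept (0.282).

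Il21r and Il7r work with the common gamma chain, as do the interleukin 2, 4, 9 and 15 receptors. Il21r fell to a fitted -1.38 ± 0.17 SE in wild-type LPS cells, with -1.95, -1.17, -0.9998 and -1.41 (adjusted p = 2.55e-05). It was -1.43 in MyD88-/- LPS cells (adjusted p = 2.57e-05), -1.05 in wild-type E. coli cells (0.000285) and -0.95 in MyD88-/- E. coli cells (0.00106). Every one of its 16 mouse values lay below 0.

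Il7r, best known for lymphocyte survival, was lowest in wild-type mice with E. coli, with -1.36, -1.06, -1.45 and -0.66 (fitted -1.13 ± 0.16 SE, adjusted p = 9.47e-05). It was -0.86 in MyD88-/- E. coli cells (adjusted p = 0.00183) and -0.96 in wild-type LPS cells (0.00053), and in MyD88-/- LPS cells the mice had -0.68, -0.61, -0.56 and -0.61 (fitted -0.62, adjusted p = 0.0198). That last call was lost without any 1 of these 4 mice, with adjusted p from 0.061 to 0.0832.

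Il4ra, the receptor chain for interleukins 4 and 13 that directs alternative macrophage activation, fell in MyD88-/- cells and was not called in wild-type cells. The MyD88-/- LPS mice had -0.94, -0.67, -0.73 and -1.28 (fitted -0.90 ± 0.21 SE, adjusted p = 0.0116), and the MyD88-/- E. coli mice had -0.95, -0.62, -0.56 and -1.09 (fitted -0.81, adjusted p = 0.0218). The wild-type E. coli mice had 0.52, 0.59, 0.21 and -0.42 (fitted 0.23) and the wild-type LPS mice 0.14, 0.51, -0.39 and -0.96 (fitted -0.18). Both calls depended on single mice. The LPS call was lost without MyD88-/- LPS mouse 1 (adjusted p = 0.0505) or mouse 4 (0.0801), and the E. coli call without MyD88-/- E. coli mouse 1 (0.0813), mouse 2 (0.0548) or mouse 4 (0.107). For Il4ra, unswapped minus swapped arrays averaged -0.53 log2 units. MyD88-/- LPS mouse 4, its lowest value, had only an unswapped array. Both calls held in an array-level fit with a dye term.

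Il15ra and Il2rb, both chains of the interleukin 15 receptor, were each called once, and in both cases a single mouse was high. Il15ra in wild-type LPS mice was 4.14, 0.63 and 1.44, with mouse 2 missing and each value from 1 array (fitted 2.07 ± 0.47 SE, adjusted p = 0.0088). Without mouse 1 the value was 1.04, and without another of these mice it reached 2.79. The Il15ra call held in each of the 16 fits without 1 mouse (adjusted p up to 0.0197). It was lost when its group was fitted alone (0.249). Il2rb in wild-type E. coli mice was 3.51, 0.65 and 1.10, with mouse 2 missing (fitted 1.76 ± 0.50 SE, adjusted p = 0.0227). Without mouse 1, whose value came from 1 array, it was 0.88 and no longer called (adjusted p = 0.237). In the other 3 groups Il15ra was 0.21 to 1.21 and Il2rb -0.54 to 0.03. The Il15ra response of wild-type E. coli cells (1.21) was called under 4 alternatives, with adjusted p from 0.00145 to 0.042. Il15, the ligand of Il15ra and Il2rb, rose in all 4 groups, by log2 ratios of 3.16, 3.01, 3.96 and 3.22. Il9r, the remaining common gamma chain partner tested, lay between -0.39 and -0.10 and was not called.

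Csf2rb is the common beta chain of the receptors for GM-CSF, interleukin 3 and interleukin 5, and Csf2rb2 is its close mouse relative that serves interleukin 3. Csf2rb fell in wild-type cells with LPS, with -0.71, -0.99, -1.03 and -0.75 (fitted -0.87 ± 0.18 SE, adjusted p = 0.00383). With E. coli it was -1.58, -0.07, -0.60 and -0.56 in wild-type mice (fitted -0.70, adjusted p = 0.0122), a call lost without mouse 1 (-0.41, adjusted p = 0.0846) and on unswapped arrays (0.193). In MyD88-/- cells it was -0.51 with LPS (adjusted p = 0.0994) and -0.27 with E. coli (0.428). The MyD88-/- LPS value was called under 3 alternatives (adjusted p from 0.0204 to 0.0419).

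Csf2rb2 was likewise called only in wild-type cells, at a smaller size. The wild-type LPS mice had -0.47, -0.41, -0.63 and -0.51 (fitted -0.50 ± 0.13 SE, adjusted p = 0.0141), and the wild-type E. coli fit was -0.49 (0.0144). The MyD88-/- fits, -0.27 and -0.03, were not called. Of these calls, that with LPS needed wild-type LPS mouse 3 (adjusted p = 0.064 in its absence). The one with E. coli needed mice 2 and 3 of its own group (0.0566 and 0.0694), and neither held on unswapped arrays (0.362 and 0.256). With LPS and E. coli, MyD88-/- minus wild-type was 0.35 and 0.43 for Csf2rb (adjusted p = 0.734 and 0.516). For Csf2rb2 it was 0.24 and 0.45 (0.744 and 0.295). So the calls of Csf2rb and Csf2rb2 do not set the genotypes apart. The probes of these near-copies may share signal, which was not tested. Csf2ra, the GM-CSF-binding alpha chain, lay between -0.24 and 0.08 and was not called.

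Ifngr1, the chain that binds interferon gamma, rose in 3 responses. It was 1.00, 1.05, 0.54 and 1.43 in MyD88-/- LPS mice (fitted 1.00 ± 0.23 SE, adjusted p = 0.00922), 0.80 in wild-type LPS cells (0.0251) and 0.87 in MyD88-/- E. coli cells (0.0212). In wild-type cells with E. coli it was 0.67 with an adjusted p = 0.05001, not under the threshold, and its mice had 1.24, -0.05, 0.77 and 0.70. The calls were lost without MyD88-/- LPS mouse 4 (adjusted p = 0.0678), without MyD88-/- E. coli mouse 1 (0.0506) or mouse 4 (0.151), and without wild-type LPS mouse 2, 3 or 4 (0.0811, 0.0792 and 0.0807).

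Il17ra, the signalling chain of the interleukin 17 receptor, rose in wild-type cells with LPS, with 0.12, 0.61, 0.37 and 0.48 (fitted 0.40 ± 0.13 SE, adjusted p = 0.0455). The fit gave 0.40, 0.24 and 0.37 in the other groups. In MyD88-/- LPS cells the unadjusted p of 0.00743 was close to the 0.00749 of the called response, but the adjusted p was 0.0667. So the call does not set the genotypes apart. The call was close to the threshold: it was lost when any of 12 mice was left out (adjusted p from 0.0523 to 0.19). These were mice 2, 3 and 4 of its own group, all 4 of MyD88-/- LPS, mice 2 and 3 of wild-type E. coli, and mice 1, 2 and 3 of MyD88-/- E. coli. The Il17ra call was also lost with a dye term (0.126) and on unswapped arrays (0.125). Il10rb, a chain shared by interleukin 10 and interleukin 22, lay between -0.30 and -0.19 and was not called. Its dye orientations differed, by -0.55 log2 units on average for unswapped minus swapped arrays. On unswapped arrays alone it was called lower in wild-type LPS cells (-0.71, adjusted p = 0.00254) and in MyD88-/- E. coli cells (-0.57, adjusted p = 0.0148).

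The transforming growth factor beta receptors were not called. Tgfbr1, the type I signalling kinase, had 1.51, 0.35, 1.03 and 0.69 in MyD88-/- LPS mice (fitted 0.89 ± 0.29 SE, adjusted p = 0.0663) and 0.59, 1.93, 1.00 and 0.09 in MyD88-/- E. coli mice (fitted 0.90, adjusted p = 0.0603). Each of these was called under 5 alternatives, with adjusted p from 0.0299 to 0.0475 with LPS and from 0.0228 to 0.0431 with E. coli. Its wild-type fits were -0.03 with LPS and -0.55 with E. coli. Tgfbr2, the type II receptor, lay between -0.17 and 0.09. Il1r2, the decoy receptor for interleukin 1, lay between -0.35 and 0.14, with 9 of its mouse values on 1 array. Il11ra2, a mouse near-copy of the interleukin 11 receptor gene, lay between -0.25 and -0.09.

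**Figure D4:**
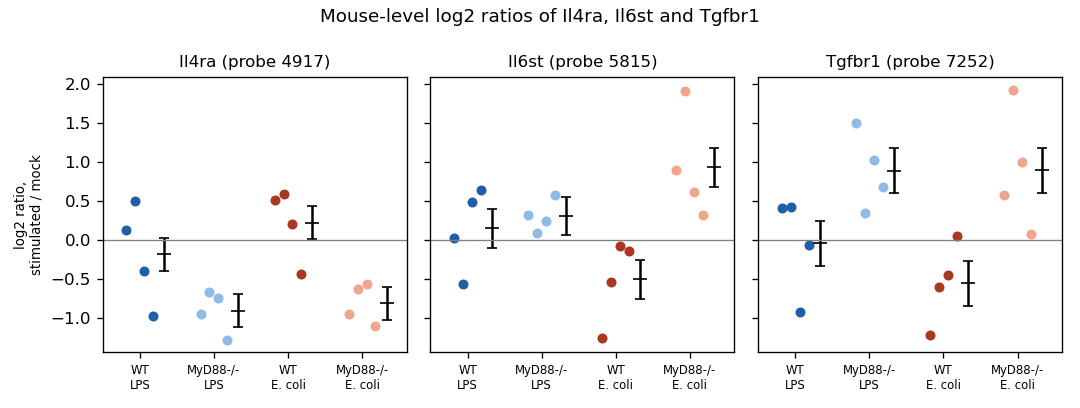
Mouse-level log2 ratios, stimulated over mock, of Il4ra, Il6st and Tgfbr1, with a point for each mouse and bars for the fitted value ± SE. For E. coli, the MyD88-/- mice lie below the wild-type mice for Il4ra and above them for Il6st and Tgfbr1, and none of these differences passed the test.

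The study's genotype contrast asks which receptor responses need MyD88. No receptor passed the test of the difference with LPS, where 0.287% of all probes did, or with E. coli, where 0.751% did. At an unadjusted p under 0.05 there were 3 of 26 receptors with LPS, beside 8.91% of all probes, and 7 of 26 with E. coli, beside 13.3%. Wild-type and MyD88-/- mice were fully separated, with no overlap of values, for 3 of 26 receptors with LPS (Il7r, Il15ra and Tnfrsf13b), against 6.68% of all probes. With E. coli they were separated for 8 of 26, against 9.08%. These 8 were Il15ra, Il4ra, Il6st, Il6ra, Il1r2, Il2rb, Tgfbr1 and Tnfrsf25, of which Il15ra, Il1r2, Il2rb and Tnfrsf25 had a group with 3 values.

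The E. coli difference, MyD88-/- minus wild-type, was 0.79 ± 0.19 SE for Il6ra (adjusted p = 0.0767), and all 4 MyD88-/- mice lay above the 4 wild-type mice. For Il6st it was 1.44 ± 0.35 (adjusted p = 0.0769) and for Tgfbr1 1.45 ± 0.41 (0.12), again with all 4 MyD88-/- mice higher. For Il4ra it was -1.03 ± 0.30 (adjusted p = 0.137), with all 4 MyD88-/- mice lower. The Tgfbr1 groups were barely apart, at 0.05 in wild-type mouse 4 and 0.09 in MyD88-/- mouse 4. Each of these values averaged an unswapped and a swapped array of opposite sign (-0.96 and 1.06, then -0.40 and 0.58). For Il6st, wild-type E. coli mice 3 and 4 and MyD88-/- E. coli mouse 4 also averaged arrays of opposite sign. An array-level fit with a dye term called Il6ra (adjusted p = 0.00599), Il6st (0.0173) and Il4ra (0.0161). Over 24 alternatives the adjusted p ran from 0.00599 to 0.189 for Il6ra, which passed in 3. It ran from 0.0173 to 0.205 for Il6st, which passed in 2, from 0.0161 to 0.306 for Il4ra, which passed in 1, and from 0.0642 to 0.285 for Tgfbr1, which passed in none.

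For Il2rb and Tnfrsf25 the fitted E. coli difference was -1.96 ± 0.66 and -1.45 ± 0.56, with adjusted p = 0.211 and 0.273. Their dye orientations differed, by -0.72 and -1.39 log2 units on average for unswapped minus swapped arrays. For Il2rb 3 mouse values, and for Tnfrsf25 6, rest on 1 array, where such a dye difference does not cancel. The Il2rb difference was -1.08 when wild-type E. coli mouse 1 was left out. With LPS the Il15ra difference was -1.86 ± 0.62 (adjusted p = 0.387), or -0.82 without wild-type LPS mouse 1, and that of Il7r was 0.34 ± 0.22 (0.699). Il15ra ran higher on unswapped arrays, by 0.97 log2 units on average over 4 dye pairs, and 9 of its mouse values rest on 1 array. Wild-type LPS mice 1 and 3 had only unswapped values, and MyD88-/- LPS mice 1 and 3 only swapped ones. So its LPS separation is mixed with dye orientation. None of the differences passed, which does not show that the genotypes responded alike.

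**Figure D5:**
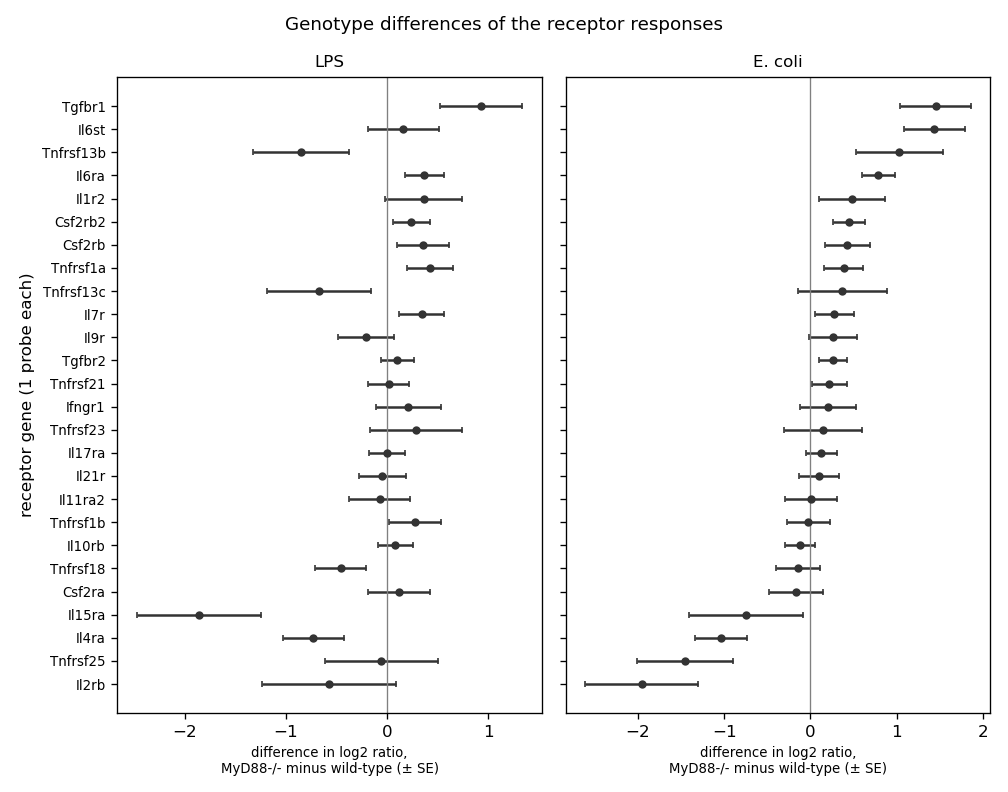
Difference of the log2 ratio, MyD88-/- minus wild-type, with its SE, for the 26 tested receptors with LPS (left) and with E. coli (right). The E. coli panel runs from -1.96 for Il2rb to 1.45 for Tgfbr1, and no receptor passed the test in either panel.

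The test did not separate live bacteria from LPS for any receptor. In both genotypes 0 of 26 receptors and 0% of all probes passed the test of E. coli minus LPS. At an unadjusted p under 0.05 there was 1 receptor in each genotype, beside 4.05% of all probes in wild-type and 2.42% in MyD88-/- cells. The largest differences were 1.73 ± 0.66 SE for Il2rb in wild-type and 1.16 ± 0.51 for Tnfrsf13b in MyD88-/- cells, with adjusted p = 0.9989 and 0.9997. Over the alternatives the Il2rb difference ran from 0.85, without wild-type E. coli mouse 1, to 2.28. The Tnfrsf13b difference ran from -1.66, with floor values kept, to 1.63, so its direction is not settled. The labels do not say whether the LPS and E. coli arrays of a mouse number share mock RNA.

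The 32 probes that could not be tested stand for 28 genes, 26 of them with no tested probe, and 20 probes had values in at least 3 mice of some group. The interleukin 1 family members were Il1r1, Il1rap, Il1rapl2, Il1rl2, Il18r1 and Il18rap. Il1r1, the signalling interleukin 1 receptor, was above 0 in 7 of 8 mice, from -1.73 to 1.58, with no value in wild-type LPS mice. Other interleukin receptors were Il2ra (2 probes on 4 arrays and 1 array), Il3ra, Il5ra, Il10ra, Il12rb1, Il12rb2, Il13ra2, Il17rb and Il27ra, and Csf3r and Tgfbr3 were also in this set. Il10ra, the specific chain for interleukin 10, had values on 5 arrays.

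The untested TNF superfamily probes were Tnfrsf4, Tnfrsf8, Tnfrsf10b (2 probes), Tnfrsf11a (2), Tnfrsf11b, Tnfrsf12a, Tnfrsf17, Tnfrsf19 (2), Tnfrsf22 and second probes of Tnfrsf1a and Tnfrsf18. Tnfrsf11a, the RANK receptor of osteoclast precursors, was above 0 in 10 of 13 mice on one probe, from -0.54 to 1.84, and in 8 of 12 on the other, from -1.72 to 1.89. Tnfrsf22, a near-copy of Tnfrsf23, was above 0 in 7 of 9 mice, from -0.81 to 3.10. The Tnfrsf10b probes ran from -1.57 to 0.63 on 5 arrays and from -1.33 to 2.23 on 14. The Tnfrsf19 probes had 1.45 on 1 array and -0.63 to 1.93 on 5, and the second Tnfrsf18 probe ran from -1.54 to 1.93. All these ranges span 0 or rest on 1 array.

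Most tested ligands of these receptor families rose. Of 52 ligand genes on the list, 17 were tested, and in each of the 4 responses 10 were called higher and 1 lower. Their medians were 1.35, 1.23, 1.21 and 0.90 for LPS in wild-type and MyD88-/- cells and then E. coli in the same order. Of all probes, 7.99%, 5.28%, 9.43% and 6.35% were called higher in that order, and 9.04%, 4.70%, 11.8% and 4.42% lower. In that order Tnf, the ligand of both TNF receptors, was 5.12, 3.59, 6.18 and 3.93. Il1a was 5.50, 3.30, 6.66 and 2.94, and the interleukin 1 receptor antagonist Il1rn was 2.91, 1.69, 3.35 and 1.83. The E. coli response was lower in MyD88-/- cells for 4 of the 17, beside 0.751% of all probes called in either direction. These were Tnf (-2.25, adjusted p = 0.00105), Il1a (-3.72, 0.00546), Il1rn (-1.53, 0.0252) and Il1b (-4.90, 0.0176), the last named after its value was seen.

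Of 44 signal transducers, 24 were tested, and 8, 6, 10 and 7 were called higher and 3, 1, 2 and 1 lower, with medians of 0.25, 0.31, 0.25 and 0.24. The shares over all probes were 7.99%, 5.28%, 9.43% and 6.35% higher and 9.04%, 4.70%, 11.8% and 4.42% lower. The caspase-8 inhibitor Cflar was 2.83, 1.99, 2.87 and 2.03 and the kinase Jak2 was 3.32, 2.78, 3.85 and 2.64. The ubiquitin ligase Birc2, which acts in TNF receptor complexes, was 1.70, 1.77, 2.14 and 1.70. Socs1, an inhibitor of Janus kinases, rose in wild-type cells, by 1.58 with LPS and 3.25 with E. coli, and was 0.72 and 0.73 in MyD88-/- cells, not called. Its E. coli difference between genotypes passed the test (-2.52 ± 0.53 SE, adjusted p = 0.0405).

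Receptors of the same families that carry other names were tested for 12 of 28 genes, and 1, 1, 2 and 2 were called higher and none lower. Over all probes 7.99%, 5.28%, 9.43% and 6.35% were called higher, so with 12 genes these counts are too small to set the list apart. Fas, the death receptor for Fas ligand, rose in all 4 responses, by 3.67, 2.80, 3.22 and 3.32, a larger log2 ratio than that of any receptor chosen here in the same response. Ifnar1, a type I interferon receptor chain, rose in MyD88-/- E. coli cells (0.76, adjusted p = 0.00657) and Crlf2, the TSLP receptor, in wild-type E. coli cells (0.37, adjusted p = 0.0353). Ngfr, the low-affinity neurotrophin receptor, was 0.68 in wild-type LPS cells (adjusted p = 0.0518).

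Markers of other cells were few among the tested probes. For T cells 2 of 11 were tested. Cd28 fell in all 4 groups, by log2 ratios of -1.10, -1.02, -1.12 and -1.25, and Cd4 was not called, at 0.16, 0.33, -0.40 and -0.23. For B cells 5 of 8 were tested. Blnk fell in all 4, Cd79a fell in MyD88-/- LPS cells (-1.05, adjusted p = 0.0119) and Ighm rose in MyD88-/- E. coli cells (0.75, adjusted p = 0.0114). Cd79b and Ms4a1 were not called, and the medians of the 5 were 0.27, -0.41, -0.01 and -0.38. For neutrophils 3 of 10, for dendritic cells 2 of 8 and for stromal cells 1 of 8 were tested, with calls for Zbtb46 (0.70, wild-type LPS) and Sparc (0.66, wild-type E. coli). Ratios give no level, so it cannot be said which of these markers were near 0. The part of other cells in the falls of Il7r and Il21r, both prominent on lymphocytes, was not tested.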

How the data were processed

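RNA of stimulated and mock-treated macrophages was compared on 31 two-colour spotted arrays, scanned and normalized by the authors with the programs GenePix, GeneSpring and BASE, per the labels. What was deposited is a log2 ratio per probe; its centring and direction are not stated, and the array medians ran from -0.122 to 0.0794. Arrays held 5564 to 10497 values, of which 1.63% in all sat at a floor ratio of 0.01 and were treated as missing. Dye-swapped arrays of a mouse, which are technical repeats, were averaged. All 16 mouse-level ratios entered one linear model (lmFit and eBayes of limma 3.58.1, R 4.3.3), with 1 coefficient per group, over the 7325 probes with values in at least 3 of 4 mice of every group. P-values were adjusted by Benjamini-Hochberg over all of them, and 0.05 was the threshold. Errors are the fit's SE. The 4 mice a group limit the precision. Gene names came from the platform annotation. Every receptor is named; those called in a comparison are given mouse by mouse, with the 4 largest uncalled responses, and from each pathway list the 4 genes of smallest p. The receptors and lists were chosen with earlier results of these data known. The fit was tested on simulated data. Same-numbered mice were not treated as paired: their residuals correlated at -0.0568 to 0.142, and the number was the best match in 2 of 8.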

Additional observations from a re-analysis of the deposited data

Results flagged for a closer look

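In 4 of the 90 groups of 4 mice examined, a single mouse lay far from the other 3 by Dixon's criterion, which chance passes in about 1 group in 20. Il9r in wild-type E. coli mouse 1 had a log2 ratio of -1.07, against -0.20 to -0.13 in the other mice. Csf2rb in MyD88-/- LPS mouse 2 was -0.98, against -0.37 to -0.33. In MyD88-/- LPS mouse 3, Il10rb was 0.0346, against -0.29 to -0.26. Il21r in MyD88-/- LPS mouse 2 was -1.29, against -1.48 to -1.46, and was still well below 0. Groups with 3 values, such as those of Il15ra and Il2rb in which 1 mouse was high, were not examined in this way.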

How the results depend on the processing

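Of the 33 receptor calls, 12 held under all 25 alternatives, 18 under each of the 16 fits without 1 mouse, and 18 under every alternative except the fit of each group alone, which tests with fewer mice and ended 20. Fitted alone, the groups gave 6 (2 higher, 4 lower), 2, 4 and 1 receptors, and 375, 255, 587 and 276 of all probes, for LPS in wild-type and MyD88-/- cells and then E. coli in the same order. Leaving out a mouse moved the receptor counts between 7 and 12, 3 and 8, 6 and 8, and 5 and 10 in that order, and between 0 and 1 for the E. coli genotype difference. That difference was called for 3 receptors with a dye term and 2 with values required in all 4 mice. Among the 33 calls the only reversal was Tnfrsf13b in MyD88-/- E. coli cells, -1.48 with floor values kept, which also turned its uncalled differences from wild-type cells (-1.78) and from LPS (-1.66). Alternatives added calls for 13 other receptor responses: Tgfbr1 and Il10rb in 2 each, Il17ra in 3, and Csf2rb, Ifngr1, Il15ra, Il6st, Tnfrsf21 and Tnfrsf23 in 1 each. With mouse number as a replicate block the counts were 11, 6, 8 and 9, and 0 for all 4 differences. Of all probes, the LPS genotype difference was called for 12 on unswapped arrays, 42 with a dye term and 35 with all 4 mice, and the E. coli difference for 24, 189 and 86. The causes were not tested.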

Other observations

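MyD88-/- LPS mouse 2 was singled out after its values had been seen. In this mouse Il6ra (-1.43), Tnfrsf1a (-0.68), Csf2rb (-0.98) and Csf2rb2 (-0.60) lay within the range of the 4 wild-type LPS mice. The other MyD88-/- LPS mice lay outside that range for Il6ra (-1.04 to -0.58), Tnfrsf1a (-0.15 to 0.05) and Csf2rb (-0.37 to -0.33). For Csf2rb2, MyD88-/- LPS mouse 3 (-0.45) also lay within the wild-type range (-0.63 to -0.41), so that gene did not single out mouse 2. Other receptors did not follow the pattern of Il6ra, Tnfrsf1a and Csf2rb. In mouse 2 Tnfrsf1b was 2.00, above the wild-type LPS mice (1.28 to 1.53), and Il7r was -0.61, less low than any of them (-1.34 to -0.74). Over all probes the LPS difference between genotypes was called for 18 without that mouse and for 21 with it.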
